A study of Mus musculus with 2 samples.

Results

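The 10 genes described here encode isozymes of the later steps of glycolysis and carriers of its substrate and product: the lactate dehydrogenase genes Ldha, Ldhb and Ldhc, the phosphoglycerate kinase genes Pgk1 and Pgk2, the glyceraldehyde-3-phosphate dehydrogenase genes Gapdh and Gapdhs, the glucose transporter genes Slc2a1 and Slc2a3, and the monocarboxylate transporter gene Slc16a1. They were chosen by symbol, and all 10 were among the 41459 genes listed for both libraries. Whole testes of mice aged 55 days were dissociated, and the RNA of single cells was captured in droplets and sequenced. There was 1 wild-type library (WT, Rad21l+/+) and 1 library labelled RAD21L KO (Rad21l-/-), from mice without RAD21L, a cohesin subunit of meiosis. The strain, the deleted part of the gene and the number of animals behind each library are not given in the sources used here. With 1 library per genotype no test was run, and each difference is one between these libraries.

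Glycolysis splits glucose to pyruvate, and lactate dehydrogenase turns pyruvate into lactate and back. In the testis, Sertoli cells take up glucose and export lactate, which spermatocytes and spermatids take up as fuel, while spermatogonia and sperm use glucose more directly. Several steps have a second gene that is used in the male germline: Ldhc for Ldha and Ldhb, the intronless autosomal Pgk2 for the X-linked Pgk1, whose chromosome is silenced in pachytene spermatocytes, and Gapdhs, whose product is bound to the fibrous sheath of the sperm tail, for Gapdh.

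Cells were put into 15 classes by marker genes, none of which is among the 10 genes or the 40 other genes of the pathway that were followed. The WT library held 5415 barcodes and 33096309 UMIs (molecular tags, 1 for each transcript captured). The KO library held 7118 barcodes and 28001992 UMIs. Of 5400 kept WT cells, 3505 entered a gate (64.9%). Of 6381 kept KO cells, 4079 did (63.9%). The libraries share 14 barcode sequences. WT gates held 15 undifferentiated and 100 differentiating spermatogonia, 43 preleptotene to leptotene, 37 leptotene to zygotene, 1026 pachytene to diplotene, 958 round spermatid and 1259 elongating spermatid cells, but 67 somatic cells in all, 48 of them in the Sertoli gate. KO gates held 99 undifferentiated and 639 differentiating spermatogonia, 226 preleptotene to leptotene and 255 leptotene to zygotene cells, then 3 pachytene to diplotene cells and no spermatid. Somatic KO gates held 1580 Sertoli, 509 Leydig, 387 myeloid, 282 stromal, 48 myoid and 42 endothelial cells.

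Levels are in CPM, the UMIs of a gene scaled to 1000000 UMIs of the summed cells of a gate. Ranges in parentheses are exact 95% intervals that cover counting error only, with 1 library behind each value. A UMI count is not scaled by transcript length, and how well each gene is captured was not measured, so levels are compared across gates for 1 gene, and shares of a family across gates. Every gate also held UMIs that belong to other cells. The 7 elongating spermatid markers, among them protamine genes, gave 1.12% of UMIs in the WT somatic gates, 0.92% in WT differentiating spermatogonia and 1.16% in the WT leptotene to zygotene gate, with no marker at 0. In the corresponding KO gates they gave at most 0.00132%. In the KO germ cell gates the 8 Sertoli markers gave 0.0255% to 0.0359% of UMIs, against 0.4% in the Sertoli gate. WT values of spermatid-type genes in early germ cells are therefore set beside the value in the WT somatic gates. Rad21l itself had 82 UMIs in WT and 109 in KO. Preleptotene to leptotene cells of the WT library had 169 CPM (117–236) of it, against 37.8 CPM (26.5–52.4) for KO. Leptotene to zygotene cells had 34.2 CPM (13.7–70.5) and 7.84 CPM (3.76–14.4). Since it is not known whether the counted end lies in the deleted part, this does not check the labels.

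The sequences upstream of 4 of the genes are shown because the 3 germline isozymes and Ldha rose at different stages. They are the 250 bases before the first start site listed by RefSeq (build GRCm38.p6, not the GRCm39 build of the counts), in the direction of transcription. Capitals mark matches on either strand to TGACG, the core of cyclic AMP response elements, to AACNGTT, the core bound by MYB factors, and to GGGCGG, the GC box.
Ldhc, chr7:46861013-46861262, plus strand: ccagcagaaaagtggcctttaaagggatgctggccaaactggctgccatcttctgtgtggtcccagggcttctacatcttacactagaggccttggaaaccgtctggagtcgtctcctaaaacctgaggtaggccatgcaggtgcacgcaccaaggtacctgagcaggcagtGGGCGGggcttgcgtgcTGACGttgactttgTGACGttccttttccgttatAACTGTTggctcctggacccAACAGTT
Ldha, chr7:46845554-46845803, plus strand: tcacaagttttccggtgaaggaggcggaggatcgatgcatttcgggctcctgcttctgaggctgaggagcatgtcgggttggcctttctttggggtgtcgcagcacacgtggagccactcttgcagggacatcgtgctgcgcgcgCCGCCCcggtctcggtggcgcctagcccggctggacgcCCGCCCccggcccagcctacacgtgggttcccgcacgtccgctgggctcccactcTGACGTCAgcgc
Pgk2, chr17:40208610-40208859, minus strand: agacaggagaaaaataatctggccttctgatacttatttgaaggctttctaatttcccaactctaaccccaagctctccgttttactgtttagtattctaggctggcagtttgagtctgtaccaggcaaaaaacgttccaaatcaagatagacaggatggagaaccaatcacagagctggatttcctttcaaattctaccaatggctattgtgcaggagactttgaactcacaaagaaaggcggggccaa
Gapdhs, chr7:30743682-30743931, minus strand: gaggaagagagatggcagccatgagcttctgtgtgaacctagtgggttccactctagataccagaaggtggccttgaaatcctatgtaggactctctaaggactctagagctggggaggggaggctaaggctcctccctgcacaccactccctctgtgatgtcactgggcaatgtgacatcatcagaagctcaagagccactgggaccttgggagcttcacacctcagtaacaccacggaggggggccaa

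The Ldhc window held 2 TGACG matches, at 61 to 57 and at 47 to 43 bases before the start, 1 GGGCGG match and 2 AACNGTT matches, at 27 to 21 and at 7 to 1 bases before it. The Ldha window held 2 GGGCGG matches and 2 TGACG matches that overlap as a palindrome at 12 to 5 bases before the start. The Pgk2 and Gapdhs windows held none of the 3 motifs. Among 32851 promoter windows of the same length, 17.8% held TGACG, 3.80% held AACNGTT and 32.7% held GGGCGG. Of the 9 genes with a window in the table (Slc2a3 had none), Ldhc alone held AACNGTT, and Ldha and Ldhc alone held TGACG. A match is a description of the letters and not a bound site.

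Ldhc, the lactate dehydrogenase of spermatocytes and sperm, reached its highest level in the WT pachytene to diplotene gate, at 6325 CPM (6286–6364, 98709 UMIs). It stood at 5008 CPM in round spermatids and 2586 CPM in elongating spermatids, which is 0.409 times (0.403–0.415) the pachytene to diplotene level. The earlier WT gates read 809 CPM in differentiating spermatogonia, 1263 CPM in the preleptotene to leptotene gate and 1319 CPM in the leptotene to zygotene gate. These do not exceed the WT somatic gates, at 1339 CPM (1219–1468). Per 100 UMIs of elongating spermatid markers there were 11.9 Ldhc UMIs (10.8–13.1) in the somatic gates and 8.85, 10.3 and 11.4 in WT spermatogonia, preleptotene to leptotene and leptotene to zygotene cells. In the pachytene to diplotene gate there were 129.7 (128.5–131). Before pachytene, Ldhc of WT cells was thus at or below the ratio to spermatid RNA that somatic cells had, and at pachytene it was above it.

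In the KO library, where spermatid markers were near 0, the start of Ldhc could be read at lower levels. Ldhc had 1 UMI in undifferentiated spermatogonia, 4 UMIs in differentiating spermatogonia (1.00 CPM, 0.273–2.57) and 2 UMIs in the preleptotene to leptotene gate. In the leptotene to zygotene gate it had 61 UMIs, or 47.8 CPM (36.6–61.4), 47.7 times (17.7–181) the level of differentiating spermatogonia. The KO somatic gates together had 14 UMIs, at 0.968 CPM (0.529–1.62). Ldhc UMIs were found in 49 of 255 leptotene to zygotene cells (19.2%, median depth 4431 UMIs) against 7 of 1580 Sertoli cells (0.443%, median depth 5734.5 UMIs). With each cell thinned to 1000 UMIs, which left out 5 and 187 shallower cells, the shares were 3.20% (1.39–6.21) and 0.0718% (0.00182–0.399). The 10% of cells with the most Ldhc held 62.3% of its UMIs there.

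Within that KO gate, Ldhc followed the neighbouring stage. The 180 cells whose next highest marker score was pachytene to diplotene had 60 of the 61 UMIs, at 59.7 CPM (45.6–76.9), and the 68 cells whose next score was preleptotene to leptotene had 1 UMI, at 3.90 CPM (0.0987–21.7). This division was made after the values were seen. Clustering without the 10 genes and the pathway list gave 2 KO clusters with the leptotene to zygotene name. One of 265 cells had Ldhc at 56.3 CPM (44.1–70.8), and the other of 105 cells had no Ldhc UMI, which allows up to 9.08 CPM.

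Ldha, the lactate dehydrogenase subunit common in muscle, was also high in WT pachytene to diplotene cells, at 1052 CPM (1036–1069). It was lower in round spermatids, at 557 CPM (534–582), and in elongating spermatids, at 177 CPM (168–186). The elongating level overlapped that of the WT somatic gates, at 189 CPM (145–241), as did those of the 3 earlier WT gates, at 140, 149 and 205 CPM. In the KO library Ldha was lowest in germ cells. It read 11.7 CPM (5.07–23.1) in undifferentiated spermatogonia, 11.8 CPM (8.66–15.7) in differentiating spermatogonia, 8.41 CPM (3.63–16.6) in the preleptotene to leptotene gate and 14.1 CPM (8.36–22.3) in the leptotene to zygotene gate, with overlapping intervals. Unlike Ldhc, it had not moved at that last stage. KO somatic gates were higher, from 77.4 CPM in Sertoli and 97.8 CPM in Leydig cells to 219 CPM (150.1–310) in endothelial cells. Per 100 Sertoli marker UMIs, KO spermatogonia had 4.21 Ldha UMIs (3.16–5.52), all kept KO cells 3.98 and the KO Sertoli gate 1.94, so Ldha of KO germ cells did not stand above the library's mix.

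Ldhb, the subunit common in heart, was a somatic gene here, with its highest level in the KO Sertoli gate at 1268 CPM (1244–1292). Leydig cells followed at 616 CPM (591–641), stromal cells at 375 CPM (327–428), then myoid cells at 226 CPM, myeloid cells at 189 CPM and endothelial cells at 109.7 CPM (62.7–178). The intervals of the last 3 overlap. In the WT Sertoli gate of 48 cells, Ldhb was at 993 CPM (874–1124). KO germ cell gates read 89.5 to 112 CPM, and WT germ cell gates 6.09 to 14.9 CPM, apart from the 15 undifferentiated spermatogonia, which had no UMI. Per 100 Sertoli marker UMIs, Ldhb had 31.7 UMIs in the KO Sertoli gate itself, 31.6 (27.9–35.6) in KO differentiating spermatogonia, 36.5 (29.9–44.3) in the KO leptotene to zygotene gate and 39.5 in all kept KO cells. Ldhb of KO germ cells thus did not stand above the library's mix.

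As a share of all lactate dehydrogenase UMIs, Ldhc made up 85.7% (85.5–85.9) in WT pachytene to diplotene cells, 89.8% (89.3–90.2) in round spermatids and 93.4% (93.1–93.7) in elongating spermatids. In KO differentiating spermatogonia it made up 0.98% (0.268–2.49), with Ldhb at 87.5%, and in the KO leptotene to zygotene gate 27.5% (21.7–33.9) of 222 UMIs. Neither Ldha nor Ldhb of KO germ cells stood above the library's mix. These KO shares thus do not show how much Ldha or Ldhb the germ cells themselves hold. WT early germ cells read 84.2% to 88.5%, at a family level that did not exceed that of the somatic gates.

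**Figure D1:**
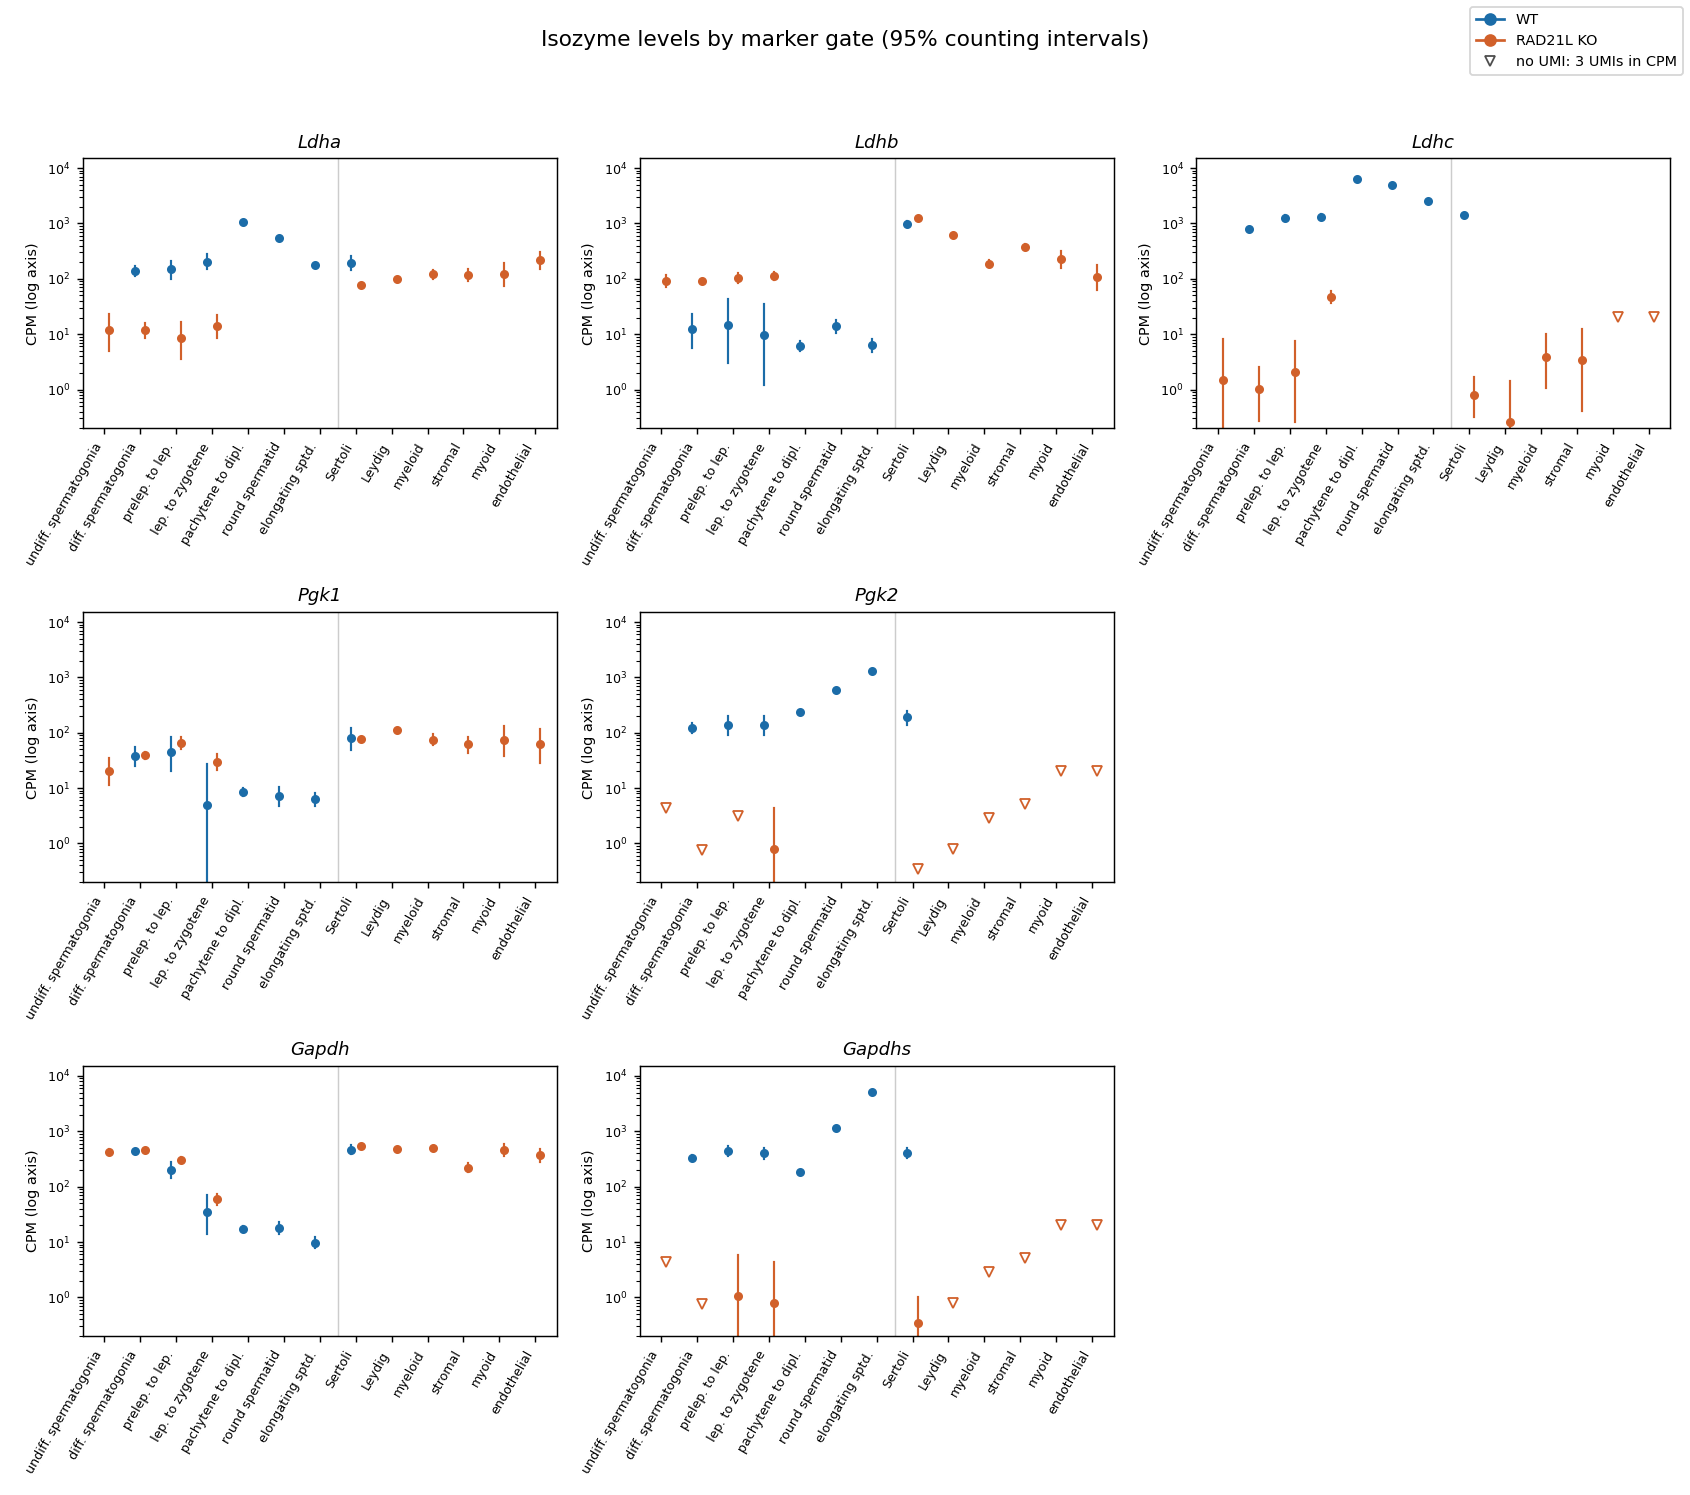
CPM on a log axis of the 7 isozyme genes in each gate of at least 20 cells, with germ cell gates left and somatic gates right of the grey line. Blue points are WT, orange points RAD21L KO, bars are exact 95% Poisson intervals, and open triangles mark 3 UMIs where none was counted. Ldhc, Pgk2 and Gapdhs of the KO library lie at or under 47.8 CPM in every gate with a UMI, while Gapdh falls along the germ cell gates of both libraries.

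Pgk2, the kinase of late spermatogenesis, rose later than Ldhc. It stood at 232 CPM (225–240) in WT pachytene to diplotene cells, 582 CPM (558–607) in round spermatids and 1317 CPM (1293–1342) in elongating spermatids, 5.67 times (5.46–5.89) the pachytene to diplotene level. Earlier WT gates read 123 to 139 CPM, against 186 CPM (143–238) in the WT somatic gates. Per 100 elongating marker UMIs, Pgk2 had 1.65 UMIs (1.27–2.12) in the somatic gates, 4.77 (4.61–4.93) in pachytene to diplotene cells and 2.17 (2.08–2.26) in round spermatids. In the KO library 1 Pgk2 UMI was counted in all 6381 kept cells, in the leptotene to zygotene gate. The 639 KO differentiating spermatogonia had none, which allows up to 0.925 CPM by the exact interval.

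Pgk1, the housekeeping kinase, was lower in the WT gates from pachytene to diplotene on than in WT differentiating spermatogonia. The WT leptotene to zygotene gate, with 1 Pgk1 UMI, has an interval that overlaps that of differentiating spermatogonia. WT levels were 38.4 CPM (25.5–55.5, 28 UMIs) in differentiating spermatogonia, 44.7 CPM (9 UMIs) in the preleptotene to leptotene gate and 4.88 CPM (0.124–27.2, 1 UMI) in the leptotene to zygotene gate. They were 8.52 CPM (7.13–10.1), 7.24 CPM and 6.34 CPM in pachytene to diplotene cells, round and elongating spermatids, whose intervals overlap. The pachytene to diplotene level was 0.222 times (0.147–0.347) that of differentiating spermatogonia. KO levels were 20.5 CPM in undifferentiated and 38.8 CPM (33–45.5) in differentiating spermatogonia, 66.2 CPM (50.9–84.7) in the preleptotene to leptotene gate and 29.8 CPM (21.1–40.9) in the leptotene to zygotene gate. The last was 0.45 times (0.293–0.683) the one before it, so Pgk1 had a peak at preleptotene to leptotene in KO, where Pgk2 was near 0 throughout. The KO leptotene to zygotene level was 0.767 times (0.523–1.10) that of KO differentiating spermatogonia, an interval that includes no difference. KO somatic gates had 61.3 to 111 CPM, highest in Leydig cells. Pgk2 made up 96.5% (95.8–97) of the family's UMIs in WT pachytene to diplotene cells, 98.8% (98.2–99.2) in round spermatids and 99.5% (99.4–99.6) in elongating spermatids.

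Gapdhs, the dehydrogenase of the sperm tail, was the latest of the 3 germline isozymes. It rose from 182 CPM (176–189) in WT pachytene to diplotene cells to 1157 CPM (1123–1192) in round spermatids and 5130 CPM (5083–5178) in elongating spermatids, 28.2 times (27.1–29.3) the first of these. Its values before the round spermatid gate followed spermatid RNA. Per 100 elongating marker UMIs it had 3.44 UMIs (2.87–4.09) in the WT somatic gates, 3.72 in spermatogonia, 3.46 in the leptotene to zygotene gate and 3.74 (3.60–3.88) in pachytene to diplotene cells. In round spermatids the ratio was 4.31 (4.18–4.44). Gapdhs was thus not detected above the ratio of the somatic gates in the summed UMIs of WT pachytene to diplotene cells. Most of these UMIs came from the 515 cells nearest in score to leptotene to zygotene. The 413 cells nearest to round spermatids had Gapdhs at 539 CPM (506–572), and no such ratio was taken for them. In the KO library Gapdhs had 9 UMIs in all kept cells.

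Gapdh, the housekeeping dehydrogenase, was high in spermatogonia of both libraries and low from leptotene to zygotene on. WT levels were 432 CPM (385–482) in differentiating spermatogonia, 204 CPM (146–277) in the preleptotene to leptotene gate, 34.2 CPM (13.7–70.5) in the leptotene to zygotene gate and 16.9 CPM (14.9–19.1) in the pachytene to diplotene gate, which is 0.0392 times (0.0331–0.0463) the first. KO levels were 431 and 456 CPM in undifferentiated and differentiating spermatogonia, 309 CPM (275–346) in the preleptotene to leptotene gate and 59.6 CPM (46.9–74.6) in the leptotene to zygotene gate. That last level was 0.131 times (0.102–0.164) the differentiating one. Per 100 Sertoli marker UMIs it came to 19.4 Gapdh UMIs (15–24.8), against 13.3 in the KO Sertoli gate and 26.9 in all kept KO cells. KO somatic gates ranged from 221 CPM in stromal to 534 CPM in Sertoli cells. Gapdh has many processed copies in the genome. Of the 50-base words of its longest protein-coding GENCODE transcript, 82.5% also occur in transcripts of 218 other genes. In its last 500 bases 90.5% do, so its counts are uncertain where reads could not be placed. Of the 218 genes, 16 were listed for the libraries, with 3971 UMIs in WT and 401 in KO, against 1297 and 12306 of Gapdh. Most of the WT UMIs were of Gm6981 (1920) and Peli2 (1805), which hold 7.59% and 6.13% of the words. Of the KO UMIs, 274 were of Peli2. Whether any of those UMIs came from Gapdh was not tested. Pgk1 shared 68% of its words, Ldhb 27% and Ldha 16.6%, and in the last 500 bases 7.32%, 24.4% and 0%. The other 6 genes shared none.

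Gapdhs made up 98.5% (98.1–98.8) of the family's UMIs in WT round spermatids and 99.8% (99.8–99.8) in elongating spermatids. KO differentiating spermatogonia had no Gapdhs among 1820 UMIs of the family, which allows a share of up to 0.203% by the exact interval.

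**Figure D2:**
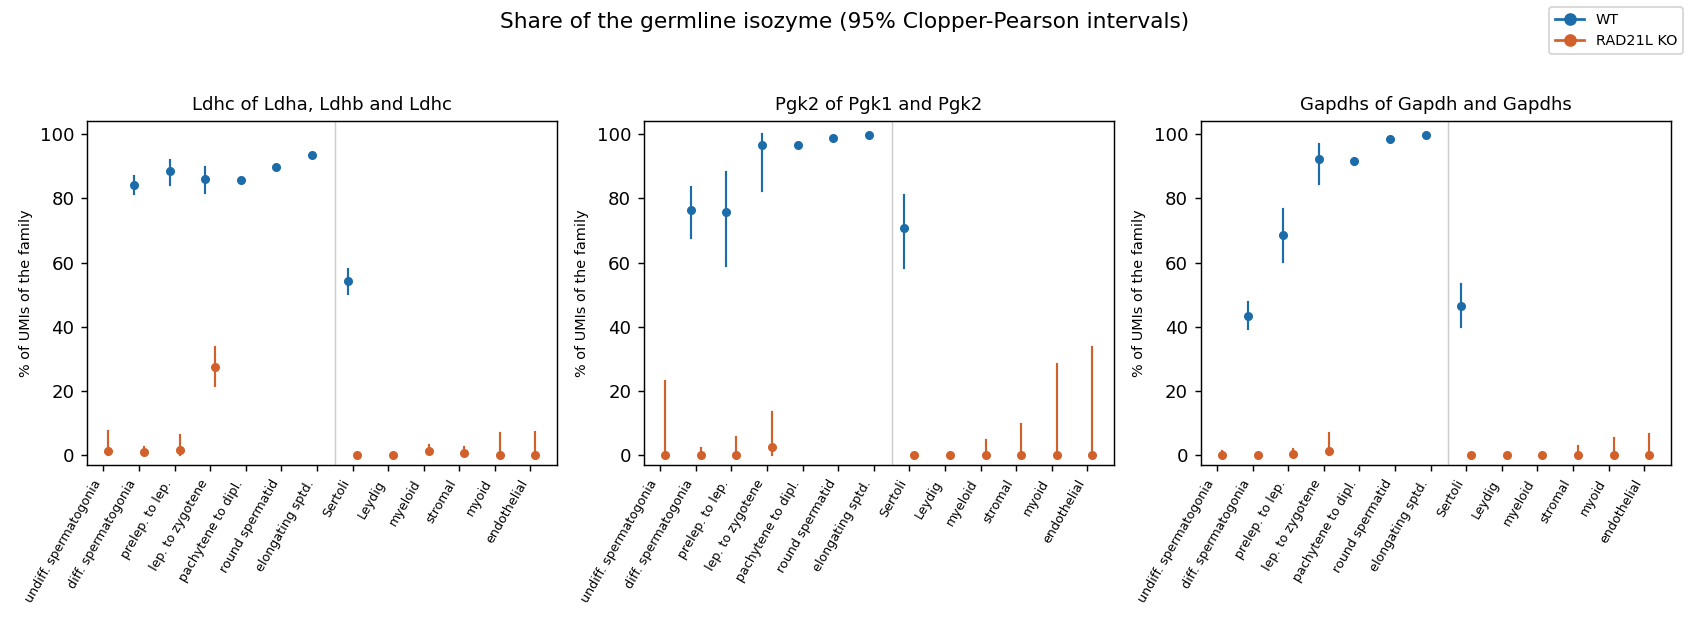
Percent of a family's UMIs that came from the germline isozyme, by gate, with exact 95% Clopper-Pearson intervals (WT blue, RAD21L KO orange, gates of at least 20 cells). Shares above 85% mark WT pachytene to elongating cells in all 3 families, and the KO leptotene to zygotene gate departs from 0 for Ldhc, at 27.5%, while WT early and Sertoli gates also carry high shares.

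The WT pachytene to diplotene gate was not uniform. Its 515 cells nearest in score to leptotene to zygotene had a median of 26332 UMIs and supplied most of the pooled UMIs, and the 413 cells nearest to round spermatids had a median of 1958 UMIs. Ldhc was at 6380 and 6031 CPM in these sets, Ldha at 1093 and 805 CPM, Pgk2 at 194 (186–201) and 494 (463–527) CPM, and Gapdhs at 122 (116–128) and 539 (506–572) CPM. Slc2a3 was at 1589 (1567–1610) and 501 (470–533) CPM. Depth moved with stage here, and its part in these differences was not tested. This division too was made after the values were seen.

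**Figure D3:**
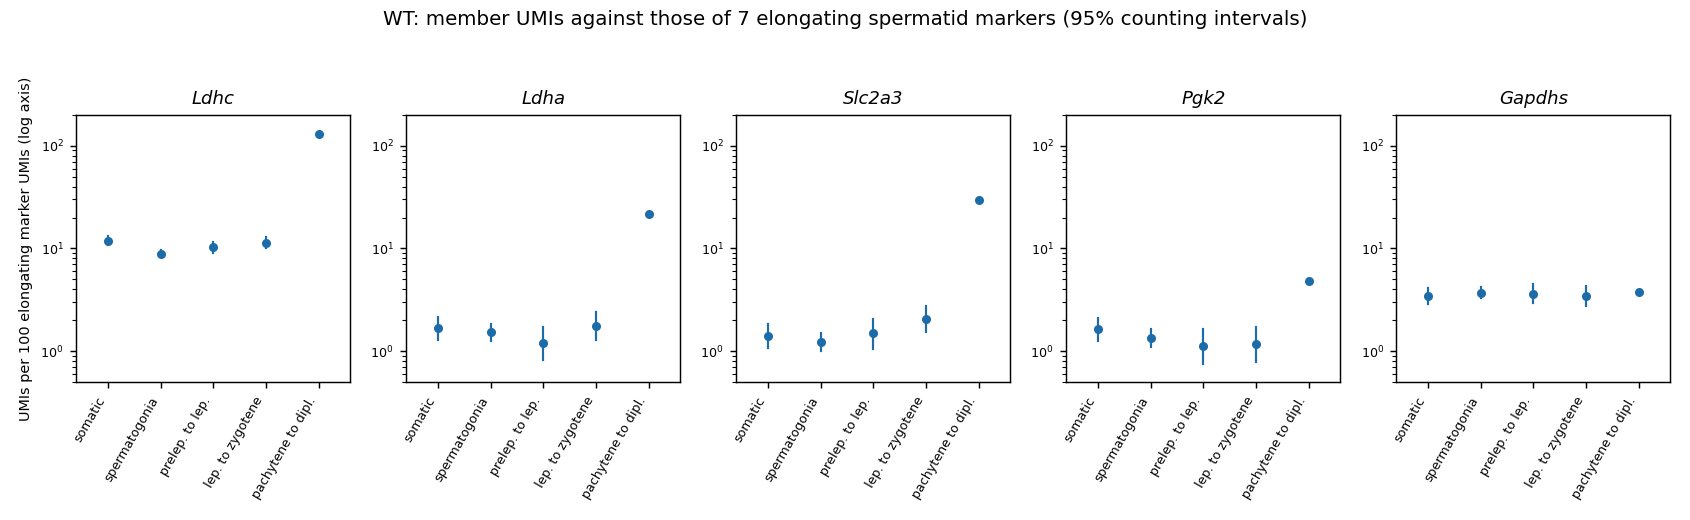
UMIs of 5 genes per 100 UMIs of the 7 elongating spermatid markers in the WT somatic gates and the WT germ cell gates up to pachytene to diplotene, on a log axis with 95% counting intervals. Ldhc, Ldha, Slc2a3 and Pgk2 lie higher in the pachytene to diplotene gate than in the somatic gates, and Gapdhs lies between 3.44 and 3.74 in the gates plotted.

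Slc2a3 encodes GLUT3, a glucose transporter of high affinity. In WT it had a sharp peak in the pachytene to diplotene gate, at 1443 CPM (1424–1462, 22521 UMIs), 12.7 times (10.2–15.9) the differentiating spermatogonia gate. Slc2a3 was at 169 CPM (156–182) in round and 72.8 CPM (67.3–78.7) in elongating spermatids, against 159 CPM (120–208) in the WT somatic gates. The differentiating spermatogonia gate, at 114 CPM, did not exceed the somatic gates, and the part of free RNA in that ratio was not tested. Ldha and Ldhc had the same order of levels over these 3 gates, with smaller drops. In the KO library Slc2a3 was at 22.0 CPM (12.3–36.3) in undifferentiated spermatogonia, 4.51 CPM (2.67–7.13) in differentiating spermatogonia, 4.20 CPM (4 UMIs) in the preleptotene to leptotene gate and 30.6 CPM (21.7–41.8) in the leptotene to zygotene gate. The last was 6.78 times (3.79–12.6) the differentiating level. Per 100 Sertoli marker UMIs it came to 9.95 Slc2a3 UMIs (6.97–13.9), against 1.29 in all kept KO cells. As with Ldhc, it was higher in the 180 cells nearest to pachytene, at 36.8 CPM (25.9–50.8), than in the 68 nearest to preleptotene, at 7.79 CPM (0.944–28.1), though these intervals overlap. KO myoid cells had 75.3 CPM (37.6–135) and Sertoli cells 38.3 CPM (34.3–42.6).

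Slc2a1 encodes GLUT1, the glucose transporter of barrier endothelia and many dividing cells. It was highest in the 42 KO endothelial cells, at 144 CPM (89.1–220.1, 21 UMIs). Next came KO Sertoli cells at 20.7 CPM (17.8–23.9), undifferentiated spermatogonia at 16.1 CPM (8.05–28.9), leptotene to zygotene cells at 14.1 CPM (8.36–22.3) and stromal cells at 13.6 CPM, which do not differ beyond their intervals. WT cells from pachytene on had 3, 5 and 0 UMIs in the 3 late gates, so Slc2a1 was at or near 0 where Slc2a3 had its peak. In the KO Sertoli gate Slc2a3 had 333 and Slc2a1 180 UMIs, a log2 ratio of 0.89 (0.62–1.16) that is not scaled for capture.

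Slc16a1 encodes MCT1, which carries lactate and pyruvate across the membrane. It was present in early germ cells of both libraries and low after leptotene to zygotene. WT levels were 67.2 CPM (49.7–88.8) in differentiating spermatogonia, 144 CPM (96.5–207) in the preleptotene to leptotene gate, 48.8 CPM (23.4–89.8) in the leptotene to zygotene gate and 6.22 CPM (5.04–7.58) in the pachytene to diplotene gate. KO germ cell gates had 60.1, 71.4, 95.6 (77–117) and 75.2 CPM (61–91.9), in the order of stages from undifferentiated spermatogonia. Per 100 Sertoli marker UMIs, KO leptotene to zygotene cells had 24.5 Slc16a1 UMIs (19.4–30.7) and all kept KO cells 6.56, so Slc16a1 of these germ cells stood above the library's mix. Among somatic KO gates, Leydig cells at 151 CPM (139–164) and Sertoli cells at 135 CPM (128–143) were highest and myoid cells at 13.7 CPM (2 UMIs) lowest.

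**Figure D4:**
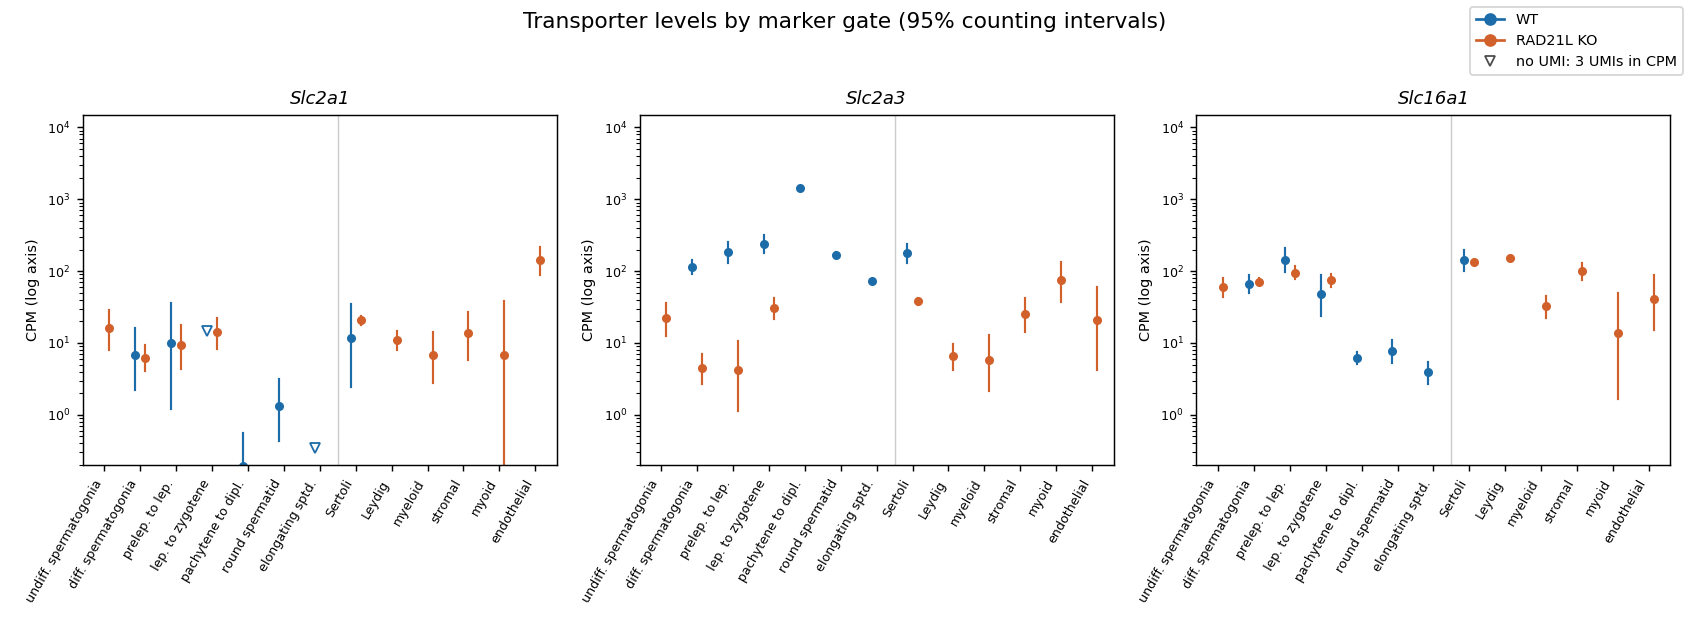
CPM on a log axis of the 3 transporter genes by gate, drawn as for the isozymes (WT blue, RAD21L KO orange, 95% Poisson intervals, open triangles for no UMI). Slc2a3 peaks at 1443 CPM in WT pachytene to diplotene cells, Slc2a1 at 144 CPM in KO endothelial cells, and Slc16a1 lies between 3.92 and 151 CPM.

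A gene was counted as higher or lower between 2 gates if its CPM differed at least 2-fold and it had at least 50 UMIs in the higher gate. A gene that is low in both therefore cannot be counted. The minimum favours genes that are high in 1 gate, though such a gene need not differ 2-fold where the gates differ in total UMIs. The counts below describe the 10 genes and support nothing further. From WT differentiating spermatogonia to pachytene to diplotene cells, 6 of the 10 genes had enough UMIs. Ldha, Ldhc and Slc2a3 were higher and Gapdh was lower, beside 36.1% of all 8410 such genes higher and 18.9% lower. Slc16a1, at 0.0925 times (0.065–0.133), and Pgk1, at 0.222 times, fell short of the UMI minimum with 49 and 28 UMIs in the spermatogonia gate. Ldhb and Slc2a1 fell short of it too. From pachytene to diplotene to elongating spermatids, Pgk2 and Gapdhs were higher and Ldha, Ldhc and Slc2a3 lower among 9 genes, beside 19.0% and 66.4% of all genes. From KO differentiating spermatogonia to the leptotene to zygotene gate, Ldhc was higher and Gapdh lower among 5 genes, beside 13.3% and 28.9%. Slc2a3 fell short of the UMI minimum there with 39 UMIs. Between KO Sertoli cells and KO differentiating spermatogonia, Ldha, Ldhb, Slc2a1 and Slc2a3 were higher in Sertoli cells and none lower among 7 genes, beside 28.8% and 27.3%. The Sertoli gate rests on its 8 markers, all detected, but none of them is among its 10 leading genes by fold, and 1 marker of another class is. Several other gates also had none of their own markers among their 10 leading genes, though no marker of another class. These include WT and KO differentiating spermatogonia, WT pachytene to diplotene, round and elongating spermatid cells, and KO leptotene to zygotene and myeloid cells.

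Comparing genotypes asks whether these genes differed in the stages both testes hold. In differentiating spermatogonia, Gapdh was at 456 CPM in KO and 432 CPM in WT, a ratio of 1.06 (0.937–1.19). Pgk1 had a ratio of 1.01 (0.674–1.57) and Slc16a1 one of 1.06 (0.783–1.47). For these 3 genes, which were low in WT late germ cells, the intervals include no difference and exclude a 2-fold one. Ldha, Ldhc, Pgk2, Gapdhs and Slc2a3 counted as lower in KO and Ldhb as higher, 6 of the 9 genes with enough UMIs, beside 8.49% of all genes higher and 4.09% lower. The WT values of those 5 are at or under the level of the WT somatic gates, and the KO value of Ldhb is not above the library's mix. For Ldha in both spermatogonia gates joined, the log2 ratio of KO over WT was -3.59 (-4.08 to -3.12), with 55 UMIs in KO and 117 in WT, whose 142 CPM compares with 189 CPM in the WT somatic gates.

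In the leptotene to zygotene gate, 5 of the 10 genes had enough UMIs. Ldhb counted as higher in KO, and Ldhc and Gapdhs as lower, beside 24.1% of all genes higher and 2.82% lower. The KO value of Ldhb is not above the library's mix. Gapdhs of the WT gate was close to the WT somatic gates in its ratio to elongating marker UMIs. The log2 ratio of Ldhc was -4.79 (-5.21 to -4.38), from 47.8 CPM in KO and 1319 CPM in WT, where the somatic gates had 1339 CPM. A WT level of Ldhc as low as that of KO would not be detectable under this. Pgk1 had 38 UMIs in KO and 1 in WT, a log2 ratio of 2.61 with an interval of 0.04 to 7.95. With the WT count set to the floor of 3 UMIs it was 1.02, so its size rests on that 1 UMI. Gapdh had a ratio of 1.74 (0.806–4.48) and Slc16a1 one of 1.54 (0.802–3.31), and both intervals include no difference. The gates may hold different steps of prophase in the 2 libraries. Of the 37 cells of the WT gate, 4 were within 25% of the lowest score allowed or of the lead required over distant classes. The KO gate has 255 cells, with 21 such.

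Of 40 other genes of glycolysis and lactate transport, all were listed, and 31 had at least 50 UMIs in their highest gate. From WT differentiating spermatogonia to pachytene to diplotene cells, 11 of 19 with enough UMIs were higher and 3 lower. Over all genes 36.1% were higher and 18.9% lower. The median log2 ratio was 1.11 against 0.49 over all genes. Gpi1, Pgam1 and Pkm, of the glucose isomerase, mutase and pyruvate kinase steps, were the 3 lower ones. From there to elongating spermatids 11 of 26 were higher and 10 lower, beside 19.0% and 66.4% of all genes. The median was 0.73 against -2.06 over all genes. The higher ones include Hk1, Gpi1, Aldoart1, Tpi1 and Pkm. In the KO leptotene to zygotene gate, 9 of 15 were lower than in differentiating spermatogonia and 1 was higher. Over all genes 28.9% were lower and 13.3% higher, and the median was -1.06 against -0.35. In KO Sertoli cells 14 of 22 were higher than in differentiating spermatogonia and 4 lower, beside 28.8% and 27.3% of all genes. The median was 1.60 against -0.02. Between genotypes, 1 of 14 was higher and 4 lower in KO differentiating spermatogonia, with a median of 0.22 beside 0.22, where 8.49% and 4.09% of all genes were higher and lower. The 4 lower genes, Hk1, Pgam2, Ldhal6b and Slc2a5, were at 137, 230.3, 181 and 83.6 CPM in the WT gate, against 189, 316, 254 and 59 CPM in the WT somatic gates. In addition, 1 of 5 was higher and 2, Pgam2 and Ldhal6b, were lower in the KO leptotene to zygotene gate. Beside them, 24.1% and 2.82% of all genes were higher and lower, and the median was -0.09 beside 0.45. The WT leptotene to zygotene gate also held spermatid RNA, with 1.16% of its UMIs from elongating spermatid markers. The part of that RNA in the ratios of Pgam2 and Ldhal6b was not tested.

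**Figure D5:**
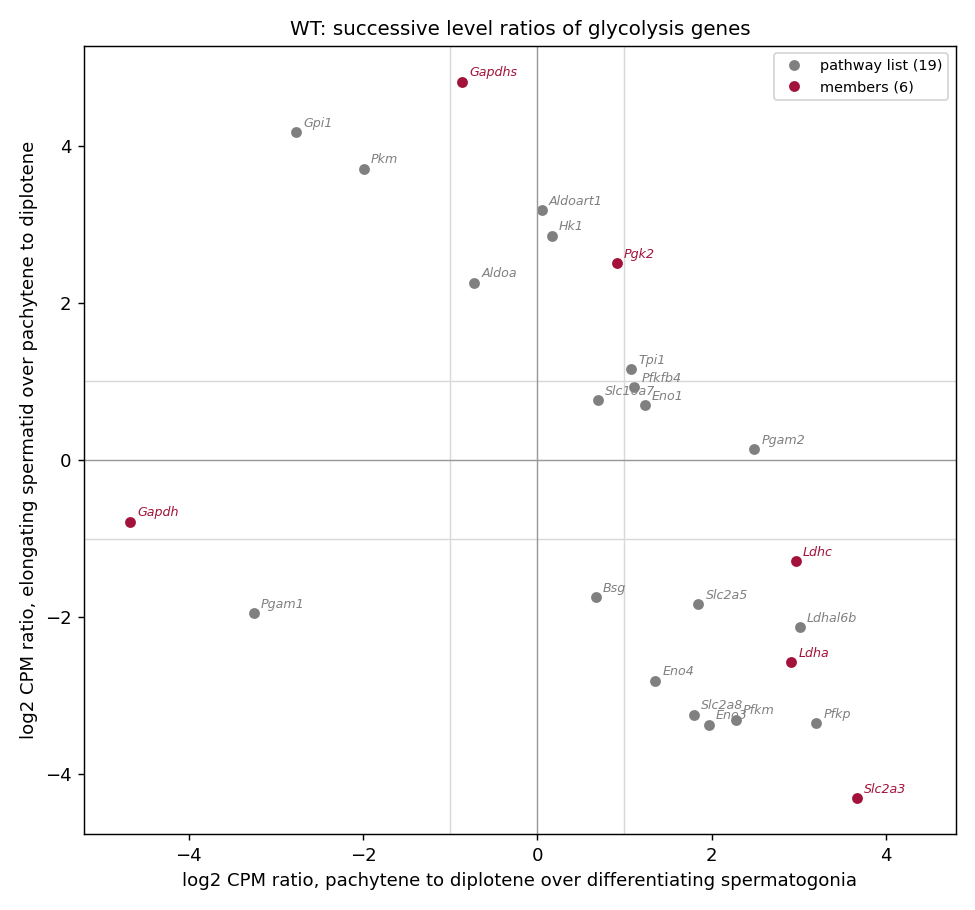
Log2 CPM ratio from WT differentiating spermatogonia to pachytene to diplotene (horizontal) against that from pachytene to diplotene to elongating spermatids (vertical), for the 6 members (red) and 19 listed pathway genes (grey) with at least 50 UMIs in the higher gate of both steps. Grey lines mark 2-fold. Ldhc, Ldha and Slc2a3 lie at the lower right with Ldhal6b, Pgk2 and Gapdhs lie at the top with Hk1 and Gpi1, and Gapdh lies at the lower left with Pgam1. The axes share the pachytene to diplotene gate, so their values are not independent.

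The 10 listed genes with the widest spread between gates included 4 that were highest in WT germ cells. Ldhal6b, a further lactate dehydrogenase gene, was at 1462 CPM in WT pachytene to diplotene cells and 334 CPM in elongating spermatids. In KO it went from 1.00 CPM (4 UMIs) in differentiating spermatogonia to 43.1 CPM (55 UMIs) in the leptotene to zygotene gate, close in size to Ldhc. Pgam2, the germline and muscle phosphoglycerate mutase, was at 1293 and 1420 CPM in the WT pachytene to diplotene and elongating gates, and 2 UMIs were counted in the KO leptotene to zygotene gate. Hk1, a hexokinase with a form in the sperm tail, was at 154 CPM in WT pachytene to diplotene cells and 1111 CPM in elongating spermatids. Slc2a5, the fructose transporter, was at 302 CPM in WT pachytene to diplotene cells and 84.4 CPM in elongating spermatids, and had 7 UMIs in the KO leptotene to zygotene gate. WT somatic gates held 254 CPM of Ldhal6b, 316 CPM of Pgam2, 189 CPM of Hk1 and 59 CPM of Slc2a5.

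The other 6 were highest in a KO somatic gate. Pfkl, the liver-type phosphofructokinase, was at 149 CPM, Hk2, the inducible hexokinase, at 359 CPM, Tigar, a fructose bisphosphatase that slows glycolysis, at 154 CPM, and Emb, a partner of monocarboxylate transporters, at 319 CPM in KO Sertoli cells. Each was under 9 CPM in WT pachytene to diplotene cells. Aldoc, an aldolase, was at 92.8 CPM and Pgam1, the common mutase, at 412 CPM in KO Leydig cells. Aldoc was also at 18.5 CPM in KO differentiating spermatogonia, above the 1.61 CPM of KO Sertoli cells. Pgam1 dropped from 168 CPM in KO differentiating spermatogonia to 55.7 CPM in the leptotene to zygotene gate, as Gapdh did.

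Across the 12 gates of at least 50 cells (4 WT, 8 KO), the pattern of each gene was compared with 11984 others by Pearson's r of log2(CPM + 1). Gates of a library share its depth and its free RNA, so r describes these pools only. Nearest to Ldhc were Cd55b (0.993), Ms4a13 (0.992) and Clec2m (0.990), to Pgk2 Actl9 (0.9996), Ankrd60 (0.997) and Prom1 (0.996), and to Gapdhs Spz1 (0.999), Smcp (0.998) and Iqcf3 (0.997), of which Smcp is a gate marker. Nearest to Ldha were Plxdc1 (0.970), Arsa (0.947) and Eid3 (0.939), and to Slc2a3 Cfap46 (0.969), Ttc12 (0.965) and Nkapl (0.9501). Ldhb was nearest to Cpe (0.993), Fxyd6 (0.992) and Defb19 (0.992), Pgk1 to Creg1 (0.980), Mpnd (0.975) and Slc25a16 (0.974), and Gapdh to Trim25 (0.987), Spr (0.985) and Tmem14c (0.984). Slc2a1 was nearest to Maged1 (0.975), Pdzd11 (0.969) and Tm7sf3 (0.968), and Slc16a1 to Plod2 (0.978), Tfdp2 (0.978) and Scap (0.975). Among the 10 genes themselves, Pgk2 and Gapdhs had r of 0.993, Ldhc and Pgk2 0.960, Slc2a1 and Slc16a1 0.943, and Ldhb and Ldhc -0.892.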

How the data were processed

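The authors deposited 1 matrix per library with unnormalized UMI counts of genes in barcodes. The submitters' processing notes list Cell Ranger 6.1.2, Seurat 4.3 and build GRCm39. How barcodes were called, and whether the chemistry reads the 3′ or 5′ end, is not given in the sources used here.

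Barcodes under 500 detected genes or above 20% of UMIs from 24 mitochondrial genes were dropped: 8 WT and 709 KO barcodes had too few genes, 7 and 28 too many mitochondrial UMIs. The median of kept cells was 2230.5 UMIs in WT and 3460 in KO. A cell's marker share was divided by the mean share of the 50 highest cells with at least 1000 UMIs, over both libraries. It entered the class with the highest score if it had 3 UMIs from 2 markers, a score of at least 0.2 and 2 times that of every class that is not a neighbour in the germ cell order. All 106 markers were found. No doublet caller was used for the values in the report. This margin left out cells with markers of 2 distant classes. The KO Sertoli gate was not compared with the 48 WT Sertoli cells, since 1 marker of another class and no Sertoli marker was among its 10 leading genes by fold. It was named from its 8 markers, all detected.

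UMIs were summed per gate, with Python 3.11.15, NumPy 2.4.6, SciPy 1.17.1 and Scanpy 1.11.5. Counts under 3 were set to 3 for calls and ranks. Intervals are exact (Poisson, Clopper-Pearson, conditional binomial), at 95%. Pathway genes named are the 10 with the widest ratio between gates, among those with at least 50 UMIs in the highest, and genes like a member the 3 with the highest r, among those with at least 200 UMIs, without predicted genes. The call rule was tested on simulated counts. Genes and lists were chosen with earlier results of these data known. 9 settings were varied as planned, and 1, equal weight of cells, was added after seeing the data.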

Additional observations from a re-analysis of the deposited data

How the results depend on the processing

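No log2 ratio changed sign under the settings tried, and all 3 shares stayed above 85%. The WT values behind the Ldha and Ldhc ratios between genotypes do not exceed those of the WT somatic gates. No setting took off free RNA at that level, so these ratios were not tested against it. Of the alternatives, most gave values within the main counting interval. The exceptions were these. With 10% of the library's profile taken off each gate as free RNA, the Gapdhs share in WT elongating spermatids was 99.9%, and the log2 ratio of Ldhc, KO over WT, in the leptotene to zygotene gate was -4.17. With each cell weighing the same, the Ldhc share in WT pachytene to diplotene cells was 87.0% and the Pgk2 share in WT round spermatids 97.9%. With clusters made without the members and the pathway list, the Ldhc share was 85.9%. The cause was not tested. The log2 ratio of Pgk1 in the leptotene to zygotene gate ranged from 1.91 to 2.70, that of Ldha in spermatogonia from -3.89 to -3.56, and that of Slc2a3 over Slc2a1 in KO Sertoli cells from 0.73 to 0.94. No WT cluster took the leptotene to zygotene name, so both results of that gate have no value by clusters. Scrublet called 1 of 5400 WT cells (0.0185%) and 126 KO cells (1.97%) as doublets, too few in WT for its calls to be used, so the highest 5% of its scores were left out in both. No paired analysis was possible because each genotype has 1 library and no test was run. The depth of the WT leptotene to zygotene gate, 204720 UMIs, limits its values: 3 UMIs there stand for 14.7 CPM.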

Other observations

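Some cells entered no gate. The 1895 such WT cells, with a median of 1485 UMIs, had 3588 CPM of Ldhc (3525–3651), 501 CPM of Pgk2 (478–525) and 1464 CPM of Gapdhs (1424–1504), beside 16.3 CPM of Pgk1 and 98.8 CPM of Gapdh. The 2302 KO cells, with a median of 1547.5 UMIs, had 3.10 CPM of Ldhc (19 UMIs), no UMI of Pgk2 and 4 UMIs of Gapdhs, beside 575 CPM of Ldhb (556–594), 418 CPM of Gapdh (402–435) and 103 CPM of Slc16a1 (95.2–111).

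Both isozymes of a pair were counted in some WT cells, and in the pachytene to diplotene gate most often for Ldha and Ldhc. Ldha and Ldhc were both found in 819 of 1026 pachytene to diplotene cells, Ldhc alone in 207 and Ldha alone in none. Pgk1 and Pgk2 were both found in 103 of these cells, Pgk2 alone in 611 and Pgk1 alone in 12. Gapdh and Gapdhs were both found in 186 of them, Gapdhs alone in 736 and Gapdh alone in 12. In the KO leptotene to zygotene gate Ldha and Ldhc were both found in 5 of 255 cells, Ldhc alone in 44 and Ldha alone in 11. These counts follow depth and free RNA as well as expression, whose parts were not tested.

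In KO myoid cells the pathway gene Pgam2 had 7 UMIs (47.9 CPM), while the other KO gates of at least 20 cells had 0 to 2 UMIs. It was chosen here after its values were seen. Among the myoid cells Hk1 stood at 116 CPM and Hk2 had no UMI, whereas KO Sertoli cells had 5.05 CPM of Hk1 and 359 CPM of Hk2.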
